A study of Homo sapiens with 2 samples.

Results

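Chromosome 17 outside a long-arm stretch of raised contacts was described here as 1129 windows of 50 kb, called probes, out of the 1574 probes of that chromosome and 61607 in the genome (hg18). They run from 1 to 54100000 and from 76350001 to 78654742, and leave out the 445 probes between, the segment. The segment's edges had been placed from the share of probes with reads on this chromosome, so the low share of the 1129 probes is partly fixed by how they were chosen. The values come from 4C-seq, in which crosslinked chromatin is cut and religated and inverse PCR from 1 chosen fragment recovers the sequences joined to it. That fragment lay beside the I-SceI site of DRGFP, a reporter of break repair, in U2OS, a human osteosarcoma line, and the strongest signal of the genome lay on chromosome 12. Both libraries came from U2OS cells with the transgenes DRGFP, TRE-I-SceI and Tet-On, with no treatment recorded and no control group, and they are independent experiments. The labels do not say whether I-SceI was induced or whether the line is 1 clone. Replicate 1 held 944456 reads and replicate 2 held 454091. With 2 libraries of 1 group, an exact sign-flip permutation test over libraries cannot give a two-sided p below 0.5, so no p-values are given and each difference stands with the values of both libraries.

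Chromosomes occupy territories in the interphase nucleus, and contacts between different chromosomes are far rarer than contacts along 1 chromosome. Small gene-dense human chromosomes tend to lie towards the nuclear interior, where they meet each other more often than they meet gene-poor ones. Chromosome 17 is among the most gene-dense, with the HOXB, type I keratin and CC chemokine clusters and well-known tumour genes such as NF1, ERBB2 and BRCA1. In osteosarcoma the region 17p11.2 to p12 of its short arm is often gained.

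Outside the segment, contacts were few, and the replicates matched in number but rarely in place. Reads lay on 67 of 1129 probes in replicate 1 (5.93%, 95% Clopper-Pearson interval 4.63% to 7.48%) and on 69 in replicate 2 (6.11%, 4.79% to 7.67%). On autosomes other than 6, 12 and 17, the share was 6.54% and 7%. The mean over replicates was 6.02% ± 0.125 (SD, n = 2). In the segment reads lay on 41.1% and 48.3% of probes, a contrast partly fixed by the choice of edges. Intervals cover counting error of probes only and treat probes as independent, although neighbouring probes share fragments. Reads within a probe can be PCR copies of a ligated fragment, which are not independent molecules. Together 125 probes had reads in either replicate and 1004 had none.

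Edges placed from replicate 2 alone were 54.1 Mb and 76.35 Mb, the same as those used, and replicate 1 then had its 5.93% outside and 41.1% inside. Edges placed from replicate 1 alone were 54.25 Mb and 71.75 Mb. With these, replicate 2 had reads on 97 of 1224 probes outside (7.92%, 6.47% to 9.58%) and on 53.4% inside. The 95 probes that changed sides at the distal edge, or just inside the proximal one, had reads at 18 in replicate 1 and 28 in replicate 2. Before the segment the share was 5.81% in replicate 2 with these edges and 6.01% in replicate 1 with the others. The low share before the segment was therefore found in the replicate that had not placed the edges, while the distal edge was uncertain.

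At the proximal edge the 5 probes just outside, from 53850001 to 54100000, had no reads in either replicate. They carry HSF5, a heat shock factor family gene, MTMR4, a phosphoinositide phosphatase gene, and TEX14, a gene of germ cell bridges. The 5 probes just inside, from 54100001 to 54350000, carry TEX14, RAD51C and PPM1E, a phosphatase gene. The highest of them, at PPM1E, had 1558 reads in replicate 1 and 2 in replicate 2. RAD51C, a recombination gene, had 0 and 13. TEX14 lies on both sides of the edge. At the distal edge, all 10 probes on either side carry clone-based names. The 5 outside had no reads, and the highest of the 5 inside had 1 and 118.

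**Figure D1:**
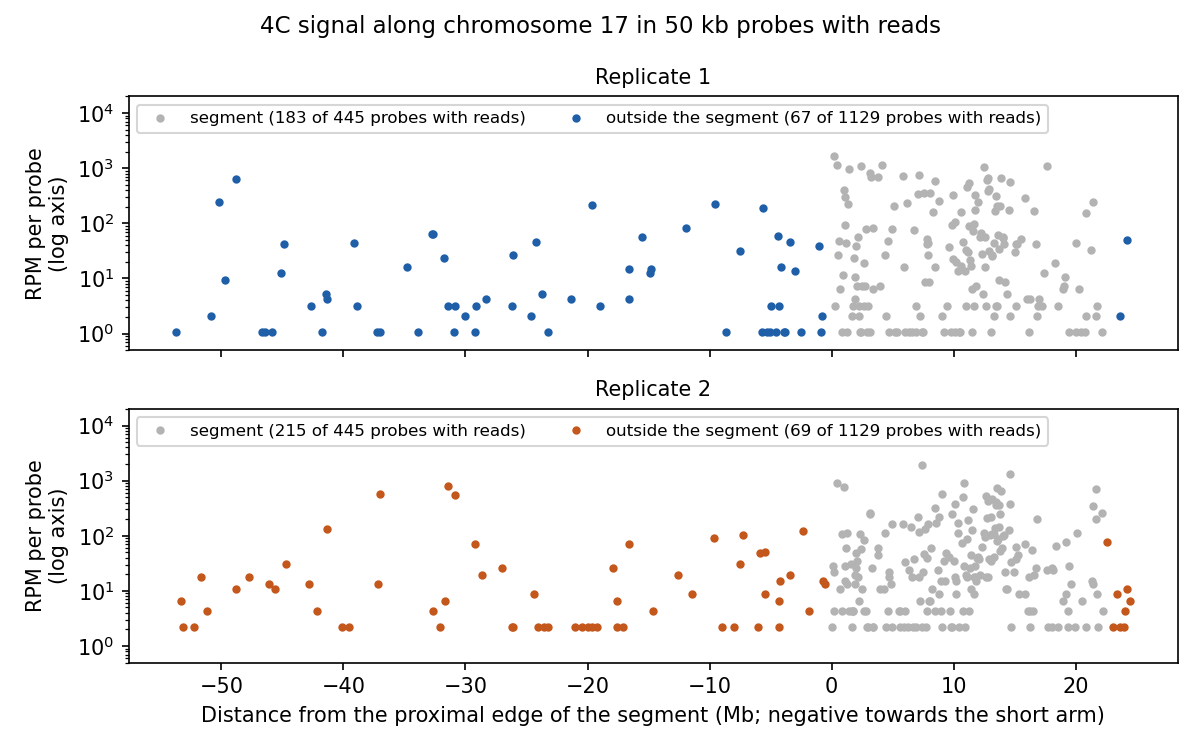
Signal of each 50 kb probe with reads along chromosome 17, in reads per 1000000 library reads (RPM, log axis), against distance from the proximal edge of the segment in Mb. Coloured points are the 67 and 69 probes outside the segment in replicates 1 and 2, and grey points the 183 and 215 inside it. Probes with no reads are not drawn.

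The signal was carried by a few probes. On the scale of reads per 1000000 library reads (RPM), the mean was 2.12 per probe in replicate 1 and 2.80 in replicate 2, or 2.46 ± 0.483 (SD, n = 2). The 1129 probes, 1.83% of the genome's, held 0.240% and 0.317% of each library's reads. The autosomes other than 6, 12 and 17, with 80.7% of the genome's probes, held 19.5% and 19.3%. In replicate 1, 3 probes held 46.7% of the 2262 reads, and in replicate 2, 3 others held 60.8% of the 1438 reads. Of the probes with reads, 20 in replicate 1 (29.9%) and 24 in replicate 2 (34.8%) had a single read, and the median was 3 reads in each. At least 10 reads lay on 26 probes (2.30%) in replicate 1 and on 16 (1.42%) in replicate 2, against 2.33% and 2.36% on the other autosomes named above.

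The highest probe of replicate 1 overlaps NUP88 (5250001 to 5300000), the gene of a nuclear pore component, with 645 RPM, against 11 in replicate 2. ZZEF1 (3850001 to 3900000), which encodes a protein with a zinc finger and an EF hand, had 246 RPM in replicate 1 and 0 in replicate 2. The next 3 were a gene-free probe from 44500001 with 229 RPM, a probe of clone-based name from 34450001 with 218 and a gene-free probe from 48450001 with 186. In replicate 2 these had 0, 2.20 and 0 RPM. Thus each of the 5 highest probes of replicate 1 had at most 5 reads in replicate 2.

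The highest probe of replicate 2 overlaps WSB1 (22650001 to 22700000), which encodes an adaptor of a ubiquitin ligase, with 791 RPM against 3.18 in replicate 1. A probe of clone-based name from 17050001 had 581 RPM and a gene-free probe from 23250001 had 555, against 1.06 and 3.18 in replicate 1. Another probe of clone-based name, from 12750001, had 132 RPM, and ANKFN1 (51700001 to 51750000), which encodes a protein with ankyrin repeats, had 123, both with 0 in replicate 1. The lists of the 5 highest probes in the replicates shared no probe.

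Both replicates had reads at 11 probes, 16.4% of those of replicate 1 and 15.9% of those of replicate 2. That is 0.974% of the 1129 probes, against 1.28% on autosomes other than 6, 12 and 17 and 0.925% on chromosomes 16, 19, 20 and 22. At least 2 reads in each replicate were found at 6 of them, 0.531% of the probes against 0.463% on autosomes other than 6, 12 and 17. Of the 11, 7 carry a gene symbol, 2 a clone-based name and 2 no gene. In 6 of the 11 (54.5%), 1 replicate had at least 30 reads and the other at most 5, bounds chosen after the values were seen. The same held for 37.9% of shared probes on the other autosomes. Whether reads carried over between libraries add to such pairs was not tested. Pearson's r of log2(RPM + 1) between replicates was 0.114 across the 1129 probes and 0.0885 across those of the other autosomes, given as a description, since neighbouring probes share fragments.

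At least 10 reads in both replicates were found at 2 probes, 0.177% of the 1129, against 0.0986% of the probes of the other autosomes. NME2 (46600001 to 46650000), the gene of a nucleoside diphosphate kinase, had 30 and 14 reads, or 31.8 and 30.8 RPM in replicates 1 and 2 (31.3 ± 0.660, SD, n = 2). ZNF385C (37450001 to 37500000), a zinc finger gene, had 14 and 32 reads, or 14.8 and 70.5 RPM. NME2 was thus level between the libraries and ZNF385C was not.

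Elsewhere among the shared probes the levels were lopsided or near the floor. TAOK1 (24850001 to 24900000), a gene of a STE20-type kinase, had 1 and 32 reads. SLFN12L (30850001 to 30900000), a Schlafen family gene, had 1 read in each, and CCDC57 (77700001 to 77750000), which encodes a coiled-coil protein, had 2 and 1. A gene-free probe from 49750001 had 3 reads in each replicate. The signal at 3 of the 11 shared probes was therefore at most 3 reads in both libraries.

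**Figure D2:**
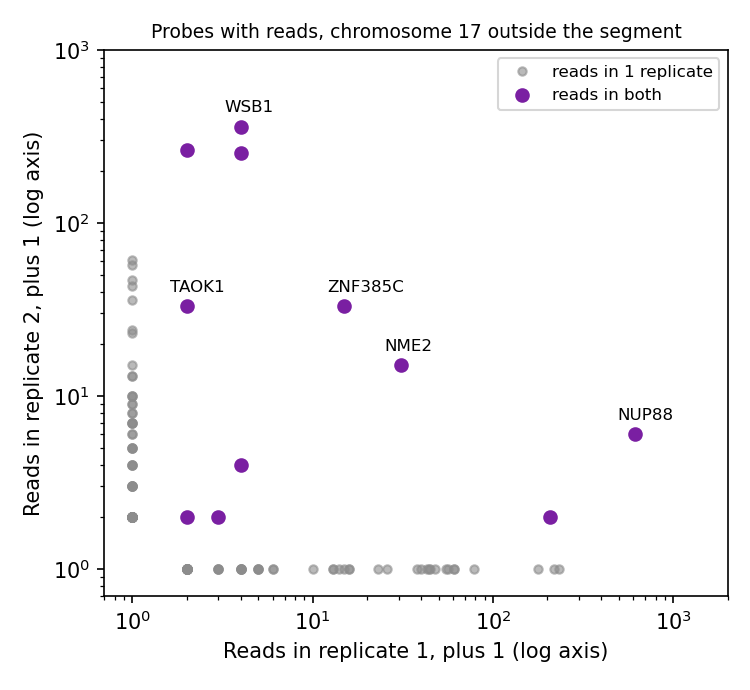
Reads in replicate 1 against reads in replicate 2, each plus 1 on log axes, for the 125 probes with reads on chromosome 17 outside the segment. The 11 purple points had reads in both replicates, and points on the left and bottom lines had reads in 1 replicate. NME2 and ZNF385C are the 2 with at least 10 reads in both.

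A further 4 genes were reached in both replicates, but at different probes. STX8, a syntaxin gene, had 39 reads in replicate 1 at the probe from 9250001 and 14 in replicate 2 at the probe from 9400001. HLF, a bZIP transcription factor gene, had 44 reads in replicate 1 at the probe from 50650001 and 9 in replicate 2 at its neighbour. MYO1D, an unconventional myosin gene, had reads at 2 of its 8 probes in each replicate, 28 and 2 in all, with no probe in common. ANKFN1 had 1 read in replicate 1 and 56 in replicate 2. Together 11 of 473 gene symbols (2.33%) had reads in both replicates, against 4.61% of gene names on the other autosomes. In replicate 1, 8.03% had reads against 13.8%, and in replicate 2, 9.73% against 14.1%. A name covers 1.60 probes here and 2.18 there on average, and the part of that in the lower share was not tested.

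Detection outside the segment was close to that of the other small gene-dense autosomes. Chromosomes 16, 19, 20 and 22 together had reads on 5.34% and 5.31% of 5295 probes in replicates 1 and 2. Chromosome 17 outside the segment lay above this by 0.590 and 0.805 percentage points (0.697 ± 0.152, SD, n = 2). Chromosome 16 had 5.91% and 6.58%, chromosome 19 5.64% and 4.46%, chromosome 20 5.04% and 5.60% and chromosome 22 4.33% and 3.73%. The intervals of all these chromosomes overlapped that of chromosome 17 outside the segment in both replicates. The difference from chromosome 16 was 0.0256 points in replicate 1 and -0.473 in replicate 2.

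The direction of that comparison depended on how gene-free sequence was treated. Candidate assembly gaps, runs of at least 10 probes with neither gene name nor reads, made up 15.6% of the probes of the 4 chromosomes and 30.1% of those of chromosome 22, and none of those of chromosome 17 outside the segment. Without them the 4 chromosomes had reads on 6.33% and 6.29% of probes, and the differences of chromosome 17 outside the segment from them became -0.397 and -0.175 points. These runs were defined in part by the absence of reads, and no map of the gaps was used. Among probes with a gene name, 5.20% and 6.18% had reads on chromosome 17 outside the segment, against 5.88% and 5.65% on the 4 chromosomes. On all autosomes other than 6, 12 and 17 the share of named probes was higher in both replicates, 7.07% and 7.39%. The intervals here were 3.86% to 6.84% in replicate 1 and 4.71% to 7.93% in replicate 2.

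Compared with 19 autosomes other than 6, 12 and 17, detection here was above that of 9 in replicate 1 and of 7 in replicate 2. Their range was 3.83% to 8.09% and 3.73% to 8.92%. The mean RPM per probe was above that of 3 of the 19 in each replicate, in a range of 1.11 to 6.54 and 1.05 to 5.78. It was 0.659 and 0.885 times that of chromosomes 16, 19, 20 and 22 together, and 0.540 and 0.721 times that of all 19 autosomes. Taken singly, it was below chromosome 16 (0.379 and 0.805 times) and chromosome 20 (0.757 and 0.485 times). It was above chromosome 19 (1.15 and 1.54 times) and chromosome 22 (1.69 and 2.66 times). With candidate gaps counted, the level thus lay in the lower part of the range while detection lay in its middle. Such gaps made up 12.5% of the probes of the 19 autosomes and none of those here. Without them the 19 autosomes together had reads on 7.47% and 8.00% of probes. Here the shares were 5.93% and 6.11%, with intervals up to 7.48% and 7.67%. Ranks among the 19 without gaps were not worked out. With few probes holding most reads, the level rests on those probes: without the highest probe of each replicate the mean was 1.55 and 2.11 RPM.

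**Figure D3:**
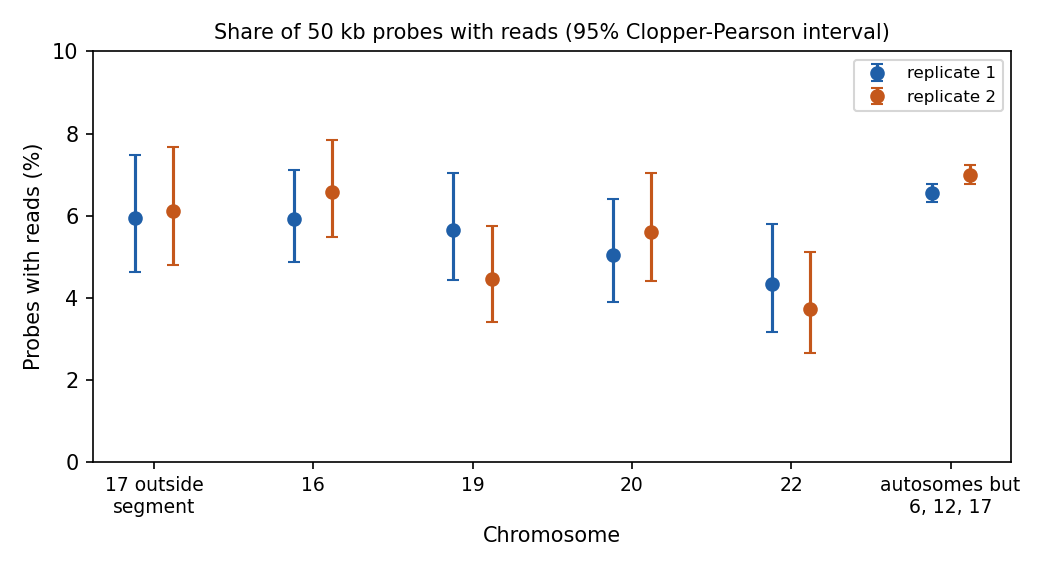
Percentage of 50 kb probes with reads in replicate 1 (blue) and replicate 2 (orange) on chromosome 17 outside the segment, on chromosomes 16, 19, 20 and 22, and on all autosomes but 6, 12 and 17. Bars are 95% Clopper-Pearson intervals, and that of chromosome 17 outside the segment overlaps each of the others in the same replicate. Candidate gaps are counted among the probes.

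The share of probes with reads was lower on the short arm than on the long arm in both replicates, within counting error. The short arm, taken up to the last probe of KCNJ12, a potassium channel gene, had reads on 20 of 426 probes in replicate 1 (4.69%) and 17 in replicate 2 (3.99%). The long arm from WSB1 to the segment had reads on 42 of 629 (6.68%) and on 41 (6.52%). The 27 probes between them, near the centromere, had 3 and 3, and no probe there was shared. In replicate 1 these 3 included neighbouring probes from 21350001 and 21400001 with 60 reads each. The 95% intervals of the short and long arm overlapped in each replicate (2.89% to 7.16% and 4.85% to 8.92% in replicate 1, and 2.34% to 6.31% and 4.72% to 8.74% in replicate 2).

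In windows of 5 Mb, the one from 45 Mb to 50 Mb had the most probes with reads, 11 of 100 in each replicate, and the one from 40 Mb to 45 Mb the fewest over both replicates, 2 and 3. The window from 15 Mb to 20 Mb had 4 and 2. Among 488 full windows on autosomes other than 6, 12 and 17, 5.94% had at least 11 in each replicate and 9.22% had at most 3. Neither window was thus outside the range of these 488. They include candidate gaps, which chromosome 17 outside the segment lacks and which add to windows with few reads. The medians of the 488 windows were 6 and 7 probes. Across the 10 full windows here, Pearson's r between the replicates' shares was 0.697 (Spearman's rho 0.639), and r between the share of probes with a gene name and the share with reads was -0.622 and -0.648 (rho -0.455 and -0.462). These are descriptions of 10 windows that share libraries, and the window from 45 Mb to 50 Mb, with gene names at 48 of 100 probes, weighs heavily in them.

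**Figure D4:**
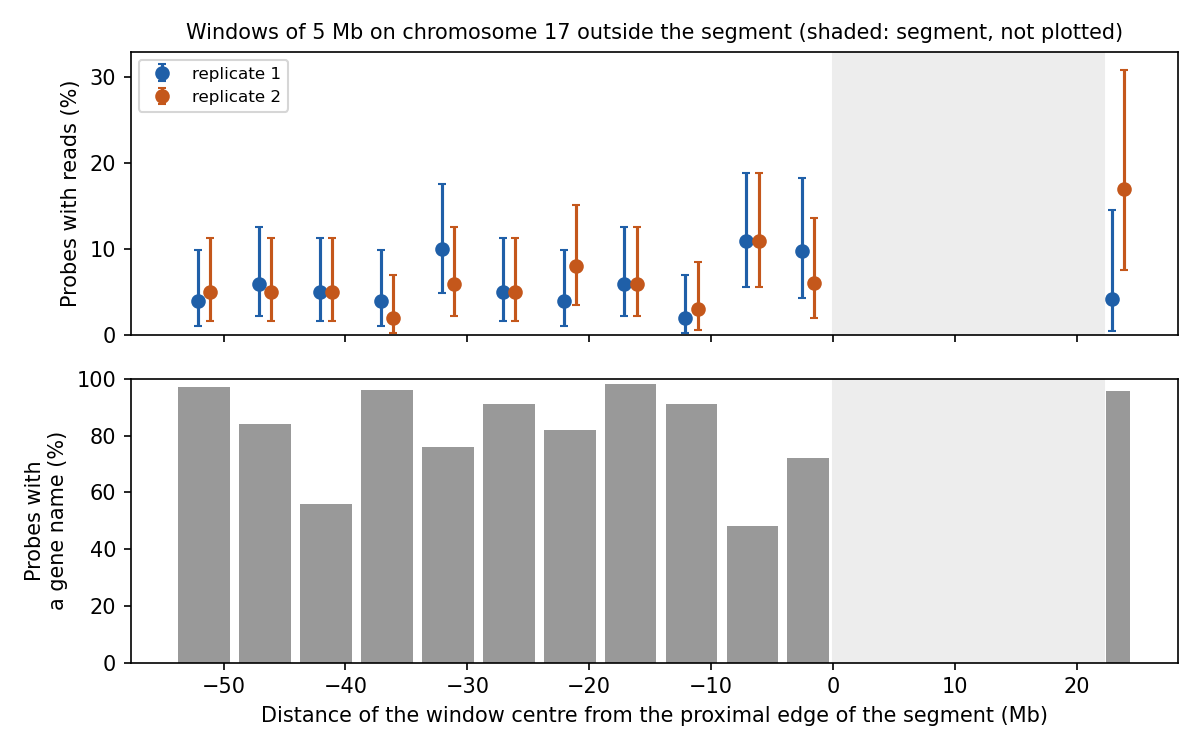
Upper panel, percentage of probes with reads in windows of 5 Mb (the last before the segment and the distal one are shorter) for replicate 1 (blue) and replicate 2 (orange), with 95% Clopper-Pearson intervals. Lower panel, percentage of probes with a gene name in the same windows, against distance from the proximal edge of the segment. The window from 45 Mb to 50 Mb has the lowest share of gene names and 11% of probes with reads in each replicate.

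The reads of that window lay mostly where no gene is named. Its 52 probes without a gene name had reads at 9 in replicate 1 (17.3%) and 8 in replicate 2 (15.4%), and its 48 named probes at 2 and 3. The longest gene-free stretch outside the segment, 26 probes from 47600001 to 48900000, begins after CA10, which encodes a carbonic anhydrase-related protein. It had reads at 3 and 4 probes, none of them shared. The next, 20 probes from 49300001 to 50300000 between KIF2B, a kinesin gene, and TOM1L1, an endosomal adaptor gene, had reads at 6 and 3 probes, with 1 shared. Together these 46 probes had reads at 19.6% (9.36% to 33.9%) in replicate 1 and 15.2% (6.34% to 28.9%) in replicate 2. CA10 itself had no reads on its 11 probes in either replicate.

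On autosomes other than 6, 12 and 17, gene-free stretches of at least 10 probes had reads at 4.82% and 5.32% of probes. Without the 91 of 467 stretches that had no reads at all, the shares were 6.77% and 7.47%. Of the 467, 25 (5.35%) had shares at or above those of the 26-probe stretch in both replicates, and of the 68 with at least 26 probes none had. These 68 held 5081 probes, and 12 of them had no reads at all. Without those 12 the shares were 4.19% and 4.46%. The lengths were not matched, and a high share is harder to reach over a longer stretch. The stretches on chromosome 17 were singled out after their values were seen, so no test was made. Outside the window from 45 Mb to 50 Mb, probes without a gene name, the end of the second stretch included, had reads at 10 of 154 (6.49%) in replicate 1 and 4 (2.60%) in replicate 2.

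Both stretches lie within 10 Mb of the proximal edge. In those 10 Mb, reads lay on 20 of 200 probes in replicate 1 (10%, 6.22% to 15%) and on 17 in replicate 2 (8.50%, 5.03% to 13.3%), against 5.10% and 4.99% of the 882 probes farther away. Among probes with a gene name, the shares within 10 Mb were 5.74% and 7.38%, against 5.16% and 5.29% farther away. Among those without one, they were 16.7% and 10.3% against 4.76% and 3.17%. The excess near the segment lay mainly at probes without a gene name. Both stretches together held 9 of the 13 such probes with reads in replicate 1 and 7 of the 8 in replicate 2. This excess is thus largely those stretches counted again, and they were singled out after their values were seen. The edge itself was placed on detection, so these shares are a description. In the last 1 Mb before the edge, 2 of 20 probes had reads in each replicate.

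Beyond the segment, towards the chromosome end, the replicates differed. Reads lay on 2 of 47 probes in replicate 1 (4.26%, 0.520% to 14.5%) and on 8 in replicate 2 (17%, 7.65% to 30.8%), and the intervals overlap. The highest in replicate 2 was BAIAP2 (76650001 to 76700000), a gene of an actin regulator, with 77.1 RPM and none in replicate 1. In replicate 1 it was FN3K (78300001 to 78350000), which encodes a kinase that acts on glycated proteins, with 49.8 RPM and none in replicate 2. ANAPC11, a subunit gene of the anaphase-promoting complex, had 4 reads and TBCD, a tubulin folding cofactor gene, had 3, both in replicate 2. Of 15 listed genes of this region with a probe, 2 and 5 had reads, CCDC57 in both, and 9 had none, among them the actin gene ACTG1 and CSNK1D, a casein kinase gene. Over the list's 25 probes that is 8% and 20%, against 5.93% and 6.11% of all 1129 probes. Of all gene symbols outside the segment, 8.03% and 9.73% had reads.

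The longest stretch without reads in either replicate was on the short arm, 43 probes from 17100001 to 19250000, of which 42 carry a gene name. It begins at COPS3, a COP9 signalosome gene, and holds RAI1, the gene of Smith-Magenis syndrome, PEMT, a phospholipid methyltransferase gene, and TOP3A, a topoisomerase gene. The next was 41 probes from 39450001 to 41500000, of which 38 carry a gene name, ending in MAPT, which encodes the tau protein. Stretches of at least 41 probes without reads held 7.44% of the probes of chromosome 17 outside the segment, against 10.9% on autosomes other than 6, 12 and 17 and 22.6% on chromosomes 16, 19, 20 and 22, candidate gaps included. Of 56 such stretches on the other autosomes, 8 carried gene names on at least 90% of probes. A stretch without reads at this depth does not show that contacts are absent.

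The 10 gene lists of chromosome 17 all had a median of 0 RPM per probe in both replicates, as did the 1129 probes together. In no list did more than 1 gene have reads in both libraries, and some genes stand in more than 1 list. The deposited annotation gives 1 gene name per probe, so in dense clusters most genes share a probe and are not seen by name: of 10 HOXB genes, 3 had a probe, HOXB1, HOXB3 and HOXB9, and none had reads. Of 20 genes with a probe in 17p11.2 to p12, a short-arm region often gained in osteosarcoma, 19 had no reads. MAP2K4, a stress kinase gene, had 2 reads in replicate 2. Over the 38 probes of these 20 genes that is 0% and 2.63%, where the whole of chromosome 17 outside the segment had 5.93% and 6.11%. Of all gene symbols there, 8.03% and 9.73% had reads. Many of the 20, COPS3, RAI1, PEMT and TOP3A among them, lie in the stretch without reads from 17100001 to 19250000. The low share of this list is thus in part that stretch counted again.

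Of 17 tumour suppressor genes and oncogenes with a probe, 3 had reads in replicate 1 and 2 in replicate 2, with no gene in both, and 12 had none, NF1, STAT3 and NCOR1 among them. These are 7.50% and 5% of the list's 40 probes, near the 5.93% and 6.11% of all 1129 probes, and 2.33% of all 473 gene symbols had reads in both. BRCA1 (38500001 to 38550000), the breast cancer gene of homologous recombination, had 54 reads in replicate 1 (57.2 RPM) and none in replicate 2. ERBB2, a growth factor receptor gene, had 3 reads and none. MSI2, an RNA-binding protein gene, had 37 reads and none over its 9 probes. SPOP, a ubiquitin ligase adaptor gene, had 1 read in replicate 2. Of 8 DNA repair genes, BRCA1 and LIG3, a DNA ligase gene with 5 reads, had reads in replicate 1 and none did in replicate 2. The list has 9 probes, too few to set against the 5.93% and 6.11% of all 1129.

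Long genes, with 136 probes in 26 genes, had reads at 5.88% of probes in replicate 1 and 4.41% in replicate 2, near the 5.93% and 6.11% of all 1129 probes. MYO1D was the single one with reads in both, where 2.33% of all gene symbols had. A symbol covers 1.60 probes on average, fewer than these long genes do, so the share of all symbols is not a like measure. ACCN1 (now ASIC2), an ion channel gene and the one with the most probes, 24, had 2 reads on 1 probe of replicate 1. NSF, the gene of a membrane fusion ATPase beside the MAPT inversion, had 78 reads in replicate 1 and none in replicate 2. KIAA1267 (now KANSL1), a histone acetylation complex gene of that inversion, had 9 reads in replicate 2 and none in replicate 1. The other 6 of the 8 genes with a probe in the list of the inversion and its surroundings had none. Reads lay on 5.56% of this list's 18 probes in each replicate, near the 5.93% and 6.11% of all 1129.

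Among clustered families, 10 of 12 type I keratin genes with a probe had no reads, while KRT28 had 12 and KRT16 had 1, both in replicate 2. Of 7 CC chemokine genes, CCL8 had 4 reads in replicate 2. Of 6 myosin heavy chain genes, MYH10, a non-muscle myosin, had 5 reads in replicate 2, and the other 5, all of skeletal muscle, had none. In replicate 2, reads lay on 16.7%, 14.3% and 9.09% of the keratin, chemokine and myosin probes, against 6.11% of all 1129. In replicate 1 they lay on none, against 5.93%. Of all gene symbols here, 8.03% and 9.73% had reads in replicates 1 and 2, and 2.33% in both. With 12, 7 and 11 probes, lists of this size say nothing particular about these families.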

How the data were processed

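Chromatin was cut with HindIII and, after ligation, with Csp6I, per the labels' protocols. The deposited table has a column of signal for either experiment, over probes of 50 kb with at most 1 gene name each, per the file headers. The submitters' processing notes name hg18. Aligner, filters, counting and annotation were not given in the sources used here. As deposited by the authors, signal values were whole multiples of 1 step per library, 100% of them within 0.1 read, and so are reads per 1000000 (RPM) of libraries of 944456 and 454091 reads. The column totals and means at the table's end and the mitochondrial probe were left out. The single group allowed no count test and no comparison of conditions, so shares of probes were set side by side in each library, with exact Clopper-Pearson intervals of 95% (SciPy 1.17.1). Segment edges were placed by the binomial likelihood of 1 raised stretch. Restriction fragments per probe and copy number were not corrected for, and no hg18 sequence was used.

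The members and the 10 gene lists were chosen with earlier results of these data known. Named were the probes with the highest lower value of the replicates (10), the 5 highest of each replicate, list members with reads in both replicates, 5 probes at each side of the edges and the 2 longest stretches without reads; other genes were chosen after their values were seen. Of 473 gene symbols, 413 were current and 55 matched 1 synonym in a RefSeq table of GRCh38.p14, whose coordinates were not used; names based on clones are not printed. Read recovery and edge placement were tested on simulated data. Alternatives covered read thresholds, edges, gaps, scale and each replicate alone.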

Additional observations from a re-analysis of the deposited data

How the results depend on the processing

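No paired analysis was possible because all libraries form 1 group. Detection on chromosome 17 outside the segment (6.02% of probes) was 4.07% with at least 2 reads, 1.86% with at least 10, 5.59% without the 5 Mb next to the proximal edge, 5.82% without the distal end, 7.43% with edges from replicate 1 alone and 5.54% without the window from 45 Mb to 50 Mb, and 5.93% to 6.11% in single replicates. It moved by less than the replicate SD without the outer 1 Mb at each edge, with edges from replicate 2 and without candidate gaps. The mean level (2.46 RPM) was 1.83 without the highest probes, 0.201 as mean log2(RPM + 1), 3.40 as mean log2(RPM + 10), 4.89 as the median of detected probes, and 2.12 to 2.80 in single replicates. The 11 shared probes became 6 with at least 2 reads and 2 with at least 10. The difference from chromosomes 16, 19, 20 and 22 (0.697 points) turned to -0.223 against chromosome 16 alone. Against all autosomes other than 6, 12 and 17 it was -0.747, for named probes -0.0751 and without candidate gaps -0.286. It was 0.590 to 0.805 in single replicates, and its mean was positive under its 7 remaining alternatives. With at least 10 reads the replicates differed in sign (0.471 and -0.320), as they did for named probes (-0.679 and 0.528). With at least 2 reads the short arm (4.34%) had 2.93%, the probes near the centromere (11.1%) 9.26% and the long arm (6.60%) 4.37%. In single replicates these were 3.99% to 4.69%, 11.1% and 6.52% to 6.68%, and the distal end 4.26% to 17%. Named minus unnamed probes (-1.84 points) turned to 1.17 without the window from 45 Mb to 50 Mb and ran from -4.02 to 0.350 in single replicates. The causes were not tested, beyond what each setting leaves out. Settings without that window, without candidate gaps in the chromosome comparison and with unnamed probes alone were chosen after seeing the data. Depth limits what can be told: about 1 in 3 detected probes holds a single read.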

Other observations

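Some genes that no list held had reads in 1 replicate, as did most probes with reads. NTN1, an axon guidance gene (8950001 to 9000000), had 12 reads in replicate 1, and ZNF179 (now RNF112), a brain-enriched ring finger gene (19250001 to 19300000), had 15, both with none in replicate 2. PAFAH1B1, the lissencephaly gene (2450001 to 2500000), had 8 reads in replicate 2 and none in replicate 1. DUSP3, a phosphatase gene, and MPP3, a scaffold gene, lie on neighbouring probes (39200001 to 39300000) and had 12 and 14 reads in replicate 1 and none in replicate 2. These genes were chosen after their values were seen.

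Detected probes stood beside another detected probe of the same replicate in 14 of 67 cases in replicate 1 (20.9%) and in 7 of 69 in replicate 2 (10.1%), against 15.3% and 16.8% on autosomes other than 6, 12 and 17. In replicate 1, 1 of 7 neighbouring pairs with reads on both had equal reads of at least 10, the one near the centromere. On the other autosomes 4 of 260 such pairs did. In replicate 2 it was 0 of 4 here and 4 of 315 there. So few pairs allow no comparison of shares.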
